A study of Mus musculus with 20 samples.

Results

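Foxf1, Foxc2 and Foxl1 lie close together on mouse chromosome 8, and Foxq1, Foxf2 and Foxc1 lie close together on chromosome 13. They are the forkhead genes of both of these clusters, and all 6 were found among the 52783 genes of the table, matched by Ensembl identifier and symbol. They were chosen by their place in these clusters, and with the difference of Foxf1 between the tumours in these libraries already known. Their levels and differences between groups are therefore given as a description, without p-values. The neighbours and gene lists below were also chosen with earlier results of these data known. The p-values of those genes are given as a description and are no independent support. The table held 44 forkhead genes in all, so the other 38 served for comparison.

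Tumours were grown from 66cl4 or 67NR, cell lines related to 4T1 that were derived from a mouse mammary tumour, of which 66cl4 is metastatic and 67NR is not. Female BALB/cJ mice aged 8 to 12 weeks received 1000000 cells in the mammary fat pad, and tumours were taken 21 to 26 days later. Cells of 5 tumours per line were sorted by CD45, a surface protein of leukocytes, which gave 4 groups of 5 RNA sequencing libraries: 66cl4 CD45-, 67NR CD45-, 66cl4 CD45+ and 67NR CD45+. No genetic change, drug or other treatment of the mice is given for any group, and each tumour type stands for 1 cell line. CD45- libraries hold tumour cells together with fibroblasts, vessel cells and other host cells without CD45. In such bulk libraries, fewer cells of a type and less RNA per cell cannot be told apart.

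The estimated counts summed to 12960000 to 28080314 per library. For 66cl4 animals 5 and 6, the title and the recorded cell type of the libraries name opposite gates. The title was used, and the fold changes of the expressed cluster genes and the counts of called list genes between tumours are also given without these animals. Levels, TPM ranks, marker sums and profiles hold all 20 libraries. In each of the 10 animals, Ptprc, which encodes CD45, stood 33.6-fold to 1932-fold above the CD45- library in the one titled CD45+. The summed level of 10 leukocyte markers was 670.3 to 5303 in CD45- and 136373 to 322120 in CD45+ libraries, in counts normalised for depth.

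Forkhead proteins are transcription factors that bind DNA through a winged-helix domain. Foxf1 and Foxf2 are known for the mesenchyme of gut, lung and other organs, where they respond to Hedgehog ligands made by the epithelium, and Foxl1 marks mesenchymal cells under the gut epithelium. Foxc1 and Foxc2 act in blood and lymphatic vessels and in several mesenchymal tissues, and both have been linked to breast cancer cells of mesenchymal character. Foxq1 has been studied in hair, stomach and epithelial-mesenchymal transition. Fendrr is a long noncoding RNA that is transcribed away from Foxf1 on the opposite strand.

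The DNA-binding domain makes these genes alike in sequence, which bears on how well reads can be assigned. A stretch of 90 coding bases is shown for 5 of the 6 genes, 5′ to 3′, from the GENCODE M21 transcripts on GRCm38.p6. Each is exonic and on the plus strand. In Foxf1 the stretch surrounds the longest run it shares with Foxf2, and in the other genes it is the best match in the reading frame. Lower case marks bases identical to Foxf1, and capitals mark bases that differ from it:
Foxf1, chr8:121084630-121084719: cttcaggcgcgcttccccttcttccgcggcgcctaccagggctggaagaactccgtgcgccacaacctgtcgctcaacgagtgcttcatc
Foxf2, chr13:31626467-31626556: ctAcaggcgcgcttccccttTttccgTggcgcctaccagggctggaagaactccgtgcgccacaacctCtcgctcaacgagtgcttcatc
Foxl1, chr8:121128196-121128285: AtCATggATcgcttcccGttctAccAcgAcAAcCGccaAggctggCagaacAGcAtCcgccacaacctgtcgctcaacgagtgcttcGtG
Foxq1, chr13:31559349-31559438: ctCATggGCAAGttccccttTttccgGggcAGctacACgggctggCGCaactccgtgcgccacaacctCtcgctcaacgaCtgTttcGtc
Foxc1, chr13:31807529-31807618: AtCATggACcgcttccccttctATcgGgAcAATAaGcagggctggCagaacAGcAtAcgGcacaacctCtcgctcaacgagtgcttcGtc
Foxf2 differed from Foxf1 at 4 of the 90 bases, Foxq1 at 21, Foxl1 at 22 and Foxc1 at 23. The longest identical run between the coding sequences of Foxf1 and Foxf2 was 41 bases. Of all stretches of 31 bases in the transcript, 2.89% in Foxf1, 3.57% in Foxf2, 2.39% in Foxl1, 1.37% in Foxc2 and 0.636% in Foxc1 also occurred in transcripts of another gene on either strand. Of these shared stretches, 11 of 69 in Foxf1, 13 of 83 in Foxf2 and 2 of 64 in Foxl1 were shared with another of the 6 genes. In Foxc2 it was 36 of 37, and in Foxc1 34 of 37. Gm27530 held 68 of those of Foxf1 and Gm27516 held 68 of those of Foxf2, so most of their shares do not come from the other members. In Foxq1 65.9% of the stretches were shared, because A530084C06Rik overlaps it on the other strand. That gene held 8 counts over the 20 libraries and Foxq1 held 30. The strand setting of the counting is not given in the sources used here, so the counts of this pair are uncertain.

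The sequence before the start of Fendrr is shown because it lies between Fendrr and Foxf1, whose starts are 1275 bases apart in the annotation and which had the widest gap between the tumours among the genes of the clusters. Those of Foxf2 and Foxc1 are shown because both genes were expressed in both tumours and are in the promoter table. They are RefSeq sequences of GRCm38.p6, 5′ to 3′ on the strand of the gene (minus for Fendrr, plus for the other two), and cover the 250 bases before the start. The promoter table held Foxf2 and Foxc1, 2 of the 6 genes, and Fendrr. Capitals mark a forkhead motif match in Fendrr:
Fendrr, chr8:121083111-121083360: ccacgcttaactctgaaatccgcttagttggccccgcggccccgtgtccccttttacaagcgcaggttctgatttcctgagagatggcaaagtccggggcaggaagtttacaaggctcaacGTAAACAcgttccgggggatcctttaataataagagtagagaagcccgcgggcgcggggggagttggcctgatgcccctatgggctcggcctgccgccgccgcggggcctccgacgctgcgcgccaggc
In the other two, capitals mark CG dinucleotides:
Foxf2, chr13:31625566-31625815: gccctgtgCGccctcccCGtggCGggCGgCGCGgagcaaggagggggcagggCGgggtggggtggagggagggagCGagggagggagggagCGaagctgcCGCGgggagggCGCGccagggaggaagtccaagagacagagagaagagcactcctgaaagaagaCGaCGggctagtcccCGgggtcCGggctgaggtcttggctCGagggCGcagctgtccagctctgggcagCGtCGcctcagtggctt
Foxc1, chr13:31806396-31806645: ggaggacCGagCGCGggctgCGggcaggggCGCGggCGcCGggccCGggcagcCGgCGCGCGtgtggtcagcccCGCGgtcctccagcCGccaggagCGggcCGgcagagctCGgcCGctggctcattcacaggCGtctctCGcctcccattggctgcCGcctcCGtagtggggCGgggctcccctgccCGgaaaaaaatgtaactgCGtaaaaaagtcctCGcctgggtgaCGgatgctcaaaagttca
The forkhead motif GTAAACA occurred once in the Fendrr sequence and not in those of Foxf2 and Foxc1, on either strand. It occurred in 3.17% of 32851 promoters of the same length. The GLI motif TGGGTGGTC, which occurred in 0.225%, and the letters TATAAA, which occurred in 12.4%, were in none of the 3 sequences. CG dinucleotides numbered 23 for Fendrr, 21 for Foxf2 and 29 for Foxc1, against a median of 6 over all promoters. A match is a match of letters, and binding was not measured.

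Foxf1 was the member with the widest gap between the tumours (ENSMUSG00000042812, 2 exons). Levels are given as normalised counts, that is, counts divided by the DESeq2 size factor of the library. In CD45- cells of 66cl4 animals 3, 4, 5, 6 and 7 it stood at 1005, 1006, 914, 911 and 851. In those of 67NR animals 1, 4, 5, 6 and 7 it stood at 2.63, 3.75, 7.025, 0.781 and 2.045, which were 1 to 8 counts each. The groups did not overlap, and every 67NR library was near the limit of detection. In CD45+ cells the levels were 6.95, 46.8, 46.3, 55.8 and 71.0 in 66cl4 and 0, 1.10, 1.02, 2.40 and 5.14 in 67NR. All 66cl4 libraries were again above all 67NR libraries, although the lowest, of animal 3, lay close to the highest of 67NR.

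The mean of Foxf1 was 937.5 ± 66.7 (SD, n = 5) in 66cl4 CD45- and 3.25 ± 2.37 in 67NR CD45- cells, a ratio of 289. Over the summed counts of 5179 and 19, the 95% interval of this ratio was 186 to 483, which covers counting error only. Leaving out 1 library moved the ratio of means to between 243 and 407. The fitted log2 fold change was 8.16 with a standard error of 0.228, and 8.21 without animals 5 and 6. In CD45+ cells the means were 45.4 ± 23.7 and 1.93 ± 1.99, a ratio of 23.5 (12.1 to 51.7 from the counts). Leaving out 1 library moved this ratio to between 18.8, without 67NR animal 1, and 40.2, without 67NR animal 7. Without 66cl4 animals 5 and 6 the ratio was 21.5. The counts of Foxf1 there were too low for the filter, and the log2 fold change of 4.40 (SE 0.637) came from a fit of all genes with a count. From high to low, the groups ranked 66cl4 CD45-, 66cl4 CD45+, 67NR CD45- and 67NR CD45+, and the last pair overlapped.

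Fendrr, the neighbour that starts beside Foxf1, had the same order of groups. In 66cl4 CD45- cells its levels were 297, 262, 206, 183 and 185 normalised counts, and in 67NR CD45- cells 2.63, 0, 0.878, 0.781 and 0. In 66cl4 CD45+ cells they were 4.17, 22.9, 8.68, 4.21 and 24.5, and in 67NR CD45+ cells 1 library had 2.20 and the others 0. The tumours did not overlap in either gate. The ratio of means in CD45- cells was 264, resting on 1249 against 5 counts (interval 114 to 822). Leaving out 1 library moved it to between 211, without 67NR animal 4, and 546, without 67NR animal 1. The log2 fold change of Fendrr was 7.91 (SE 0.384, edgeR quasi-likelihood test, adjusted p = 4.94e-10), and 8.07 without animals 5 and 6. Fendrr passed the filter through its 66cl4 libraries, so this p-value is no independent support. Of each gene per length, Foxf1 stood at 26.7 ± 2.11 transcripts per 1000000 (TPM) and Fendrr at 7.97 ± 1.86 TPM in 66cl4 CD45- cells.

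**Figure D1:**
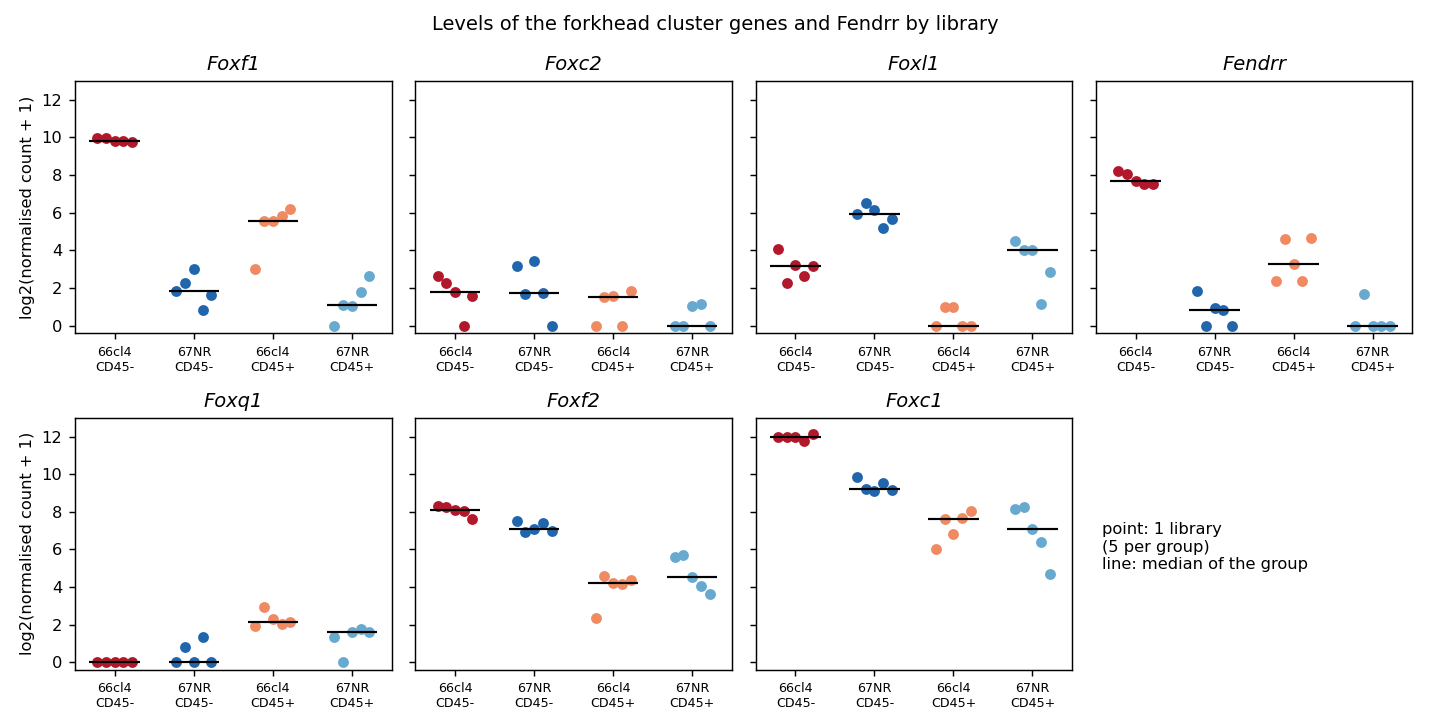
Levels of the 6 forkhead genes and Fendrr in each of the 20 libraries, as log2(normalised count + 1), with 1 point per library in order of animal number and a line at the median of the 5 libraries of a group. Foxf1 and Fendrr are highest in the 66cl4 CD45- group, in red, Foxc1 and Foxf2 are highest in CD45- cells of both tumours, Foxl1 is higher in 67NR, and Foxc2 and Foxq1 stay near 0 throughout.

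Foxc1 was the most abundant member and was higher in 66cl4 CD45- cells (ENSMUSG00000050295, 1 exon). Its levels were 4096, 3997, 4039, 3538 and 4440 normalised counts in the 5 libraries of 66cl4 CD45- cells. In 67NR CD45- cells they were 938, 590.4, 558.5, 729 and 577. The groups did not overlap, and the ratio of means (4022 ± 322 against 678.5 ± 160, SD, n = 5) was 5.93, with a log2 fold change of 2.60 (SE 0.141) and 2.68 without animals 5 and 6. In CD45+ cells the levels were 64.0, 193, 111, 199.9 and 265 in 66cl4 and 278, 299, 134, 81.5 and 24.7 in 67NR. Here the tumours overlapped over most of their range. The log2 fold change was 0.03 (SE 0.598), and its sign turned in 6 of 18 alternatives, each of them without 1 library, over a range of -0.25 to 0.84, with 0.09 without animals 5 and 6.

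Foxf2 differed far less between the tumours than Foxf1 (ENSMUSG00000038402, 2 exons). In CD45- cells its levels were 318.5, 299, 275, 266 and 197 in 66cl4 and 179, 121, 135, 169 and 127 in 67NR. The groups did not overlap, but the lowest 66cl4 library was close to the highest 67NR library. The ratio of means was 1.85, and the log2 fold change of 0.92 (SE 0.154) stayed under the threshold of 1, as it did without animals 5 and 6, at 0.95, but reached 1.03 without 66cl4 animal 7 and 1.01 without 67NR animal 1. In CD45+ cells Foxf2 had 4.17, 22.9, 17.4, 16.8 and 19.4 in 66cl4 and 46.8, 51.7, 22.4, 15.6 and 11.3 in 67NR, with overlap. The log2 fold change there was -0.83 (SE 0.50), and -0.89 without animals 5 and 6. It was -0.18 with the animal number as a block, which between tumours joins different animals and is no pairing.

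Foxl1 had the opposite direction and was low everywhere (ENSMUSG00000097084, 1 exon). Its levels in CD45- cells were 15.9, 3.74, 8.325, 5.31 and 7.985 in 66cl4 and 60.55, 90.8, 69.4, 35.9 and 50.1 in 67NR. All 67NR libraries lay above all 66cl4 libraries, with a log2 fold change of -2.92 (SE 0.367) for 66cl4 against 67NR and -2.79 without animals 5 and 6. In CD45+ cells the 67NR libraries had 21.85, 15.4, 15.2, 1.2 and 6.17, whereas 66cl4 had 1 count in each of animals 4 and 5 and 0 in the others. The ratio over 2 and 50 summed counts was 0.0352, with an interval of 0.00415 to 0.134. In a fit of all genes with a count the log2 fold change was -4.48 (SE 0.872), and -4.66 without animals 5 and 6. Foxf1 and Foxl1 lie in the same cluster and moved in opposite directions between the tumours.

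Foxc2 and Foxq1 were at or near the limit of detection (ENSMUSG00000046714 and ENSMUSG00000038415, 1 exon each). Foxc2 had 50 counts over 20 libraries, at most 11 in any of them and a count in 13. Its means were 2.71 and 4.43 normalised counts in 66cl4 and 67NR CD45- cells and 1.28 and 0.443 in CD45+ cells, and the tumours overlapped in both gates. Foxq1 had 30 counts in all. It had 0 in all 5 libraries of 66cl4 CD45- cells, which allows up to 3 counts per library, and 2, 7, 4, 3 and 4 counts in those of 66cl4 CD45+ cells. In 67NR it had 3 counts in CD45- and 7 in CD45+ cells. Neither gene passed the filter on low counts in any comparison.

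Passing a threshold is given here for completeness, since the difference of Foxf1 was known when the genes were chosen. Calls needed a log2 fold change beyond 1 in either direction and an adjusted p below 0.05. In CD45- cells, 4 of the 6 genes passed the filter and 3 of these were past the thresholds, 2 higher (Foxf1 and Foxc1) and 1 lower (Foxl1) in 66cl4. Of all 14844 genes tested, 32.2% were called, 13.2% higher and 18.9% lower. The libraries of the tumours did not overlap in these 4 genes, nor in 52.9% of all genes tested (25.8% higher and 27.1% lower). In CD45+ cells 2 of the 6 passed the filter and 0 were past the thresholds in edgeR, beside 11.8% of 14676 genes (5.01% higher and 6.82% lower). Both overlapped there, beside 15.1% of all genes without overlap (7.11% higher and 7.96% lower). DESeq2, fitted without this filter, put 2 past them, Foxf1 higher and Foxl1 lower. Nothing is read from these counts about the 6 genes.

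**Figure D2:**
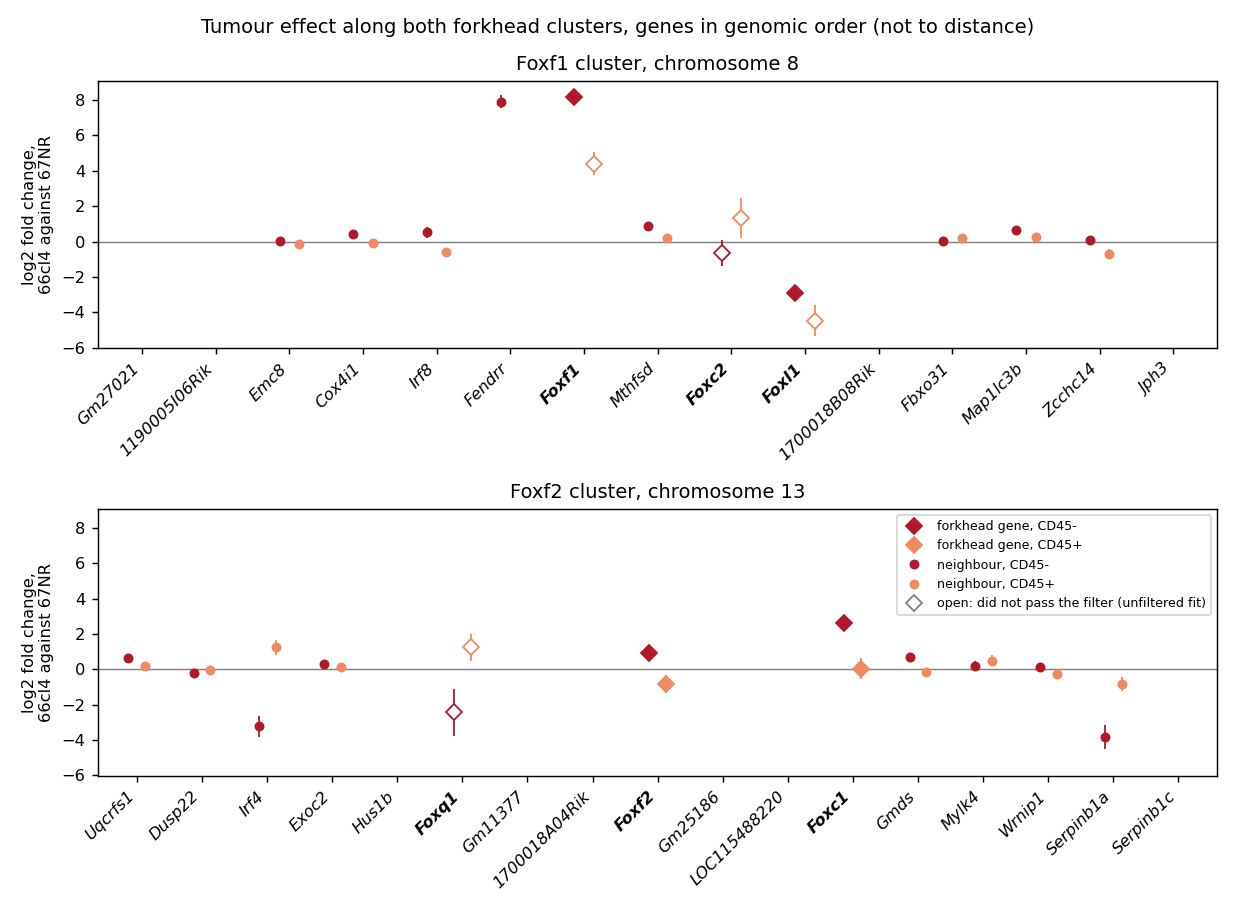
Log2 fold change between 66cl4 and 67NR tumours (bars, standard error) for the genes of both clusters in genomic order, not to distance, in CD45- cells (dark) and CD45+ cells (light). Diamonds are the 6 forkhead genes, open where a gene did not pass the filter, and genes without a point were not tested. Fendrr and Foxf1 stand together near 8, with Irf8 and Mthfsd on either side between 0.52 and 0.88 in CD45- cells.

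The genes around the clusters were described in the order of the GRCm38.p6 annotation, with 26 neighbours, of which 25 were in the table and 16 were tested in CD45- cells. Of these 16, 1 was called higher (Fendrr), 2 were called lower (Irf4 and Serpinb1a) and 13 were not called, with a median log2 fold change of 0.25 against -0.01 over all genes. Without animals 5 and 6 the counts were the same, 1 higher and 2 lower. Of all 14844 genes tested with all libraries, 13.2% were called higher and 18.9% lower. Irf8, a transcription factor of myeloid cells that lies beyond Fendrr, had a log2 fold change of 0.52 (SE 0.292, adjusted p = 0.132, edgeR). Mthfsd, which lies between Foxf1 and Foxc2 and was picked after its values were seen, had 0.88 (SE 0.121, edgeR adjusted p = 1.9e-05), under the threshold of 1. The gap of Fendrr and Foxf1 between the tumours was thus not seen in the tested gene on either side of them.

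On chromosome 13, Irf4, a transcription factor of lymphocytes and myeloid cells, had a log2 fold change of -3.24 (SE 0.591, edgeR adjusted p = 0.00025) in CD45- cells, at means of 1.76 and 17.0 normalised counts. Serpinb1a, which encodes an inhibitor of neutrophil proteases, had -3.84 (SE 0.676, edgeR adjusted p = 0.000511), at 11.6 and 174. Irf4 had far higher levels in CD45+ cells, 925 and 398 in 66cl4 and 67NR. Serpinb1a had 276 and 501 there. Between the gates it was called higher in CD45+ cells of both tumours, at a log2 fold change of 4.51 (SE 0.528) in 66cl4 and 1.53 (SE 0.507) in 67NR. In 67NR its gates overlapped, at 49.1 to 431 in CD45- and 398 to 572 in CD45+ cells. The leukocyte markers also differed in CD45- libraries, with sums of 670.3 to 4594 in 66cl4 and 2111 to 5303 in 67NR, and their part in these values was not tested. Gmds, a sugar nucleotide enzyme beside Foxc1 that was picked after its values were seen, had 0.70 (SE 0.116, edgeR adjusted p = 0.000101). 1700018A04Rik, a noncoding gene between Foxq1 and Foxf2 that was picked likewise, was at 3.24 and 0.839 normalised counts and was not tested. In CD45+ cells 0 of 15 neighbours were called with edgeR, with or without animals 5 and 6, 3 had an unadjusted p under 0.05, and DESeq2 called 3 of 21. Of all 14676 genes tested there with all libraries, edgeR called 11.8%.

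Compared per transcript length, Foxc1 and Foxf1 were among the higher forkhead genes of 66cl4 CD45- cells. In these libraries Foxc1 ranked 3 of 44 with 47.5 ± 5.69 TPM, Foxf1 ranked 5 with 26.7 ± 2.11 TPM, and Foxf2 ranked 13 with 7.89 ± 1.36 TPM. In 67NR CD45- cells Foxc1 ranked 9 with 7.82 ± 1.76 TPM, Foxf2 ranked 12 with 4.16 ± 0.746 TPM, and Foxf1 ranked 26 with 0.0883 TPM. Foxl1 ranked 20 with 0.212 TPM in 66cl4 and 16 with 1.53 TPM in 67NR. The place of Foxf1 in the family thus changed most between the tumours among these 4 genes.

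Of the other 38 forkhead genes, 32 had a count and 15 were tested in CD45- cells. Here 2 were called higher in 66cl4, 3 were called lower and 10 were not called, with a median of 0.26 against -0.01 over all genes. Of all genes tested there, 13.2% were called higher and 18.9% lower. Foxd1, which is known for kidney stroma, had the largest fold change of the 15 tested forkhead genes at 3.90 (SE 0.13, edgeR adjusted p = 1.41e-11), from 90.02 ± 18.5 in 67NR to 1314 ± 54.5 normalised counts in 66cl4. Foxp1, expressed in many tissues, had 1.82 (SE 0.0816, edgeR adjusted p = 2.16e-10). Foxp2 and Foxs1 were lower, at -2.57 (SE 0.435) and -1.62 (SE 0.334), with edgeR adjusted p-values of 0.00015 and 0.000652, both below 100 normalised counts in each group. Without animals 5 and 6, 2 of 18 tested were higher and 4 lower. Foxo6, picked after its values were seen, was among these 4. With all libraries its CD45- means were 0.00324 TPM in 66cl4 and 0.296 TPM in 67NR. In CD45+ cells 0 of 15 were called with edgeR, 7 had an unadjusted p under 0.05 and DESeq2 called 0, while without animals 5 and 6 edgeR called 1, Foxo1, named here after its values were seen. Of all genes tested there with all libraries, edgeR called 11.8%.

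**Figure D3:**
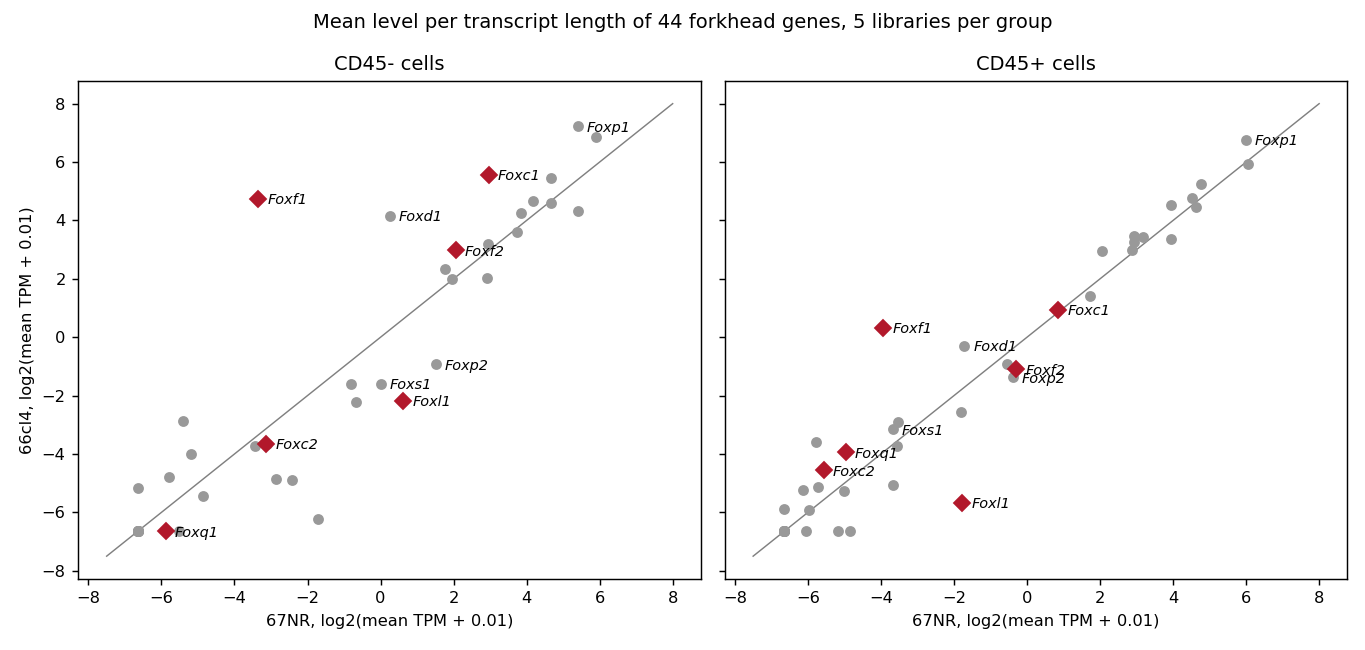
Mean level per transcript length, log2(mean TPM + 0.01), of 44 forkhead genes in 66cl4 against 67NR, 5 libraries per group, in CD45- cells (left) and CD45+ cells (right). Red diamonds are the 6 cluster genes and the grey line marks equal levels. Foxf1 lies far above the line in both gates and Foxl1 below it, while Foxc1 lies above it in CD45- cells and on it in CD45+ cells.

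Between the gates, Foxf1, Foxf2 and Foxc1 were lower in CD45+ than in CD45- cells of 66cl4 tumours. Their log2 fold changes were -4.35 (SE 0.352), -4.04 (SE 0.283) and -4.60 (SE 0.327), and without animals 5 and 6 they were -4.49, -4.08 and -4.60. All 3 members that passed the filter were past the thresholds and did not overlap, beside 44.4% of 14916 genes called (23.9% higher and 20.5% lower) and 61.4% without overlap (31.4% higher and 30.0% lower). In 67NR tumours Foxl1 had -2.37 (SE 0.49), Foxf2 -2.31 (SE 0.384) and Foxc1 -2.05 (SE 0.515), again 3 of 3 past the thresholds, beside 39.8% of 15063 genes (20.2% higher and 19.6% lower). They did not overlap either, beside 55.5% of all genes (27.5% higher and 28.0% lower). Foxf1 in 67NR tumours was near 0 in both gates, and its libraries overlapped. In 66cl4 2 members under the filter did not overlap either. Foxl1 was lower in CD45+ cells, on 2 against 41 counts, and Foxq1 was higher, on 20 against 0. DESeq2, fitted without the filter, put 1 member higher (Foxq1) and 4 lower past the thresholds in 66cl4, and 4 lower in 67NR, among them Foxc2. Nothing is read from these counts about the 6 genes.

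Within each 66cl4 animal, the CD45+ level of these genes was below 10% of the CD45- level. For Foxf1 it was 0.692, 4.66, 5.06, 6.12 and 8.34% in animals 3 to 7. Foxf2 had 1.31 to 9.89% with a median of 6.34%, and Foxc1 had 1.56 to 5.98% with a median of 4.83%. Animal 3 was lowest and animal 7 highest for each of the 3. Markers of other cells were set beside these values gene by gene, because the lists split. Of 10 fibroblast markers, 8 were called lower in CD45+ cells of 66cl4, among them Pdgfra (4441 against 179 normalised counts in CD45- and CD45+ cells) and Dcn (1102 against 61.6), 1 was not called, and Thy1 was called higher (114 against 838). The summed fibroblast level in CD45+ cells was 6.81 to 19.4% of that in CD45- cells, lowest in animal 3 and highest in animal 6, and Thy1 was its largest member there. Of 5 epithelial markers tested, Krt8 (5353 against 296) and Krt18 (1149 against 58.4) were called lower, 2 were not called, and Cdh1 was called higher (20.8 against 394). The summed epithelial level, of 623 to 966 normalised counts in CD45+ cells and 9.73 to 15.8% of that in CD45- cells, was led by Cdh1 and is no measure of the keratins. The part of these other cells in the CD45+ levels of Foxf1, Foxf2 and Foxc1 was not tested.

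In 67NR animals the parts were larger and spread more widely. Foxf2 had 8.92 to 42.8% with a median of 16.5%, Foxc1 had 4.28 to 50.6% with a median of 24.0%, and Foxl1 had 3.33 to 36.1% with a median of 17.0%. Animal 4 was highest for Foxf2 and Foxc1, animal 7 was lowest for both, and for Foxl1 animal 1 was highest and animal 6 lowest. Of the fibroblast markers, 9 were called lower in CD45+ cells of 67NR and Thy1 was called higher (217 against 1618 normalised counts), and their sum, led by Thy1, was 14.5 to 29.3% of that in CD45- cells. Of the endothelial markers, 7 were called lower, Vwf was called higher, and Pecam1 and Kdr were not called. Their sum was 32.1 to 200% of that in CD45- cells, and Pecam1, with a mean of 1096 normalised counts, was its largest member in CD45+ cells. Krt14, Cldn3 and Cldn4 were at 0 in all 67NR CD45+ libraries. The part of these cells in the levels of Foxf2, Foxc1 and Foxl1 was not tested.

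**Figure D4:**
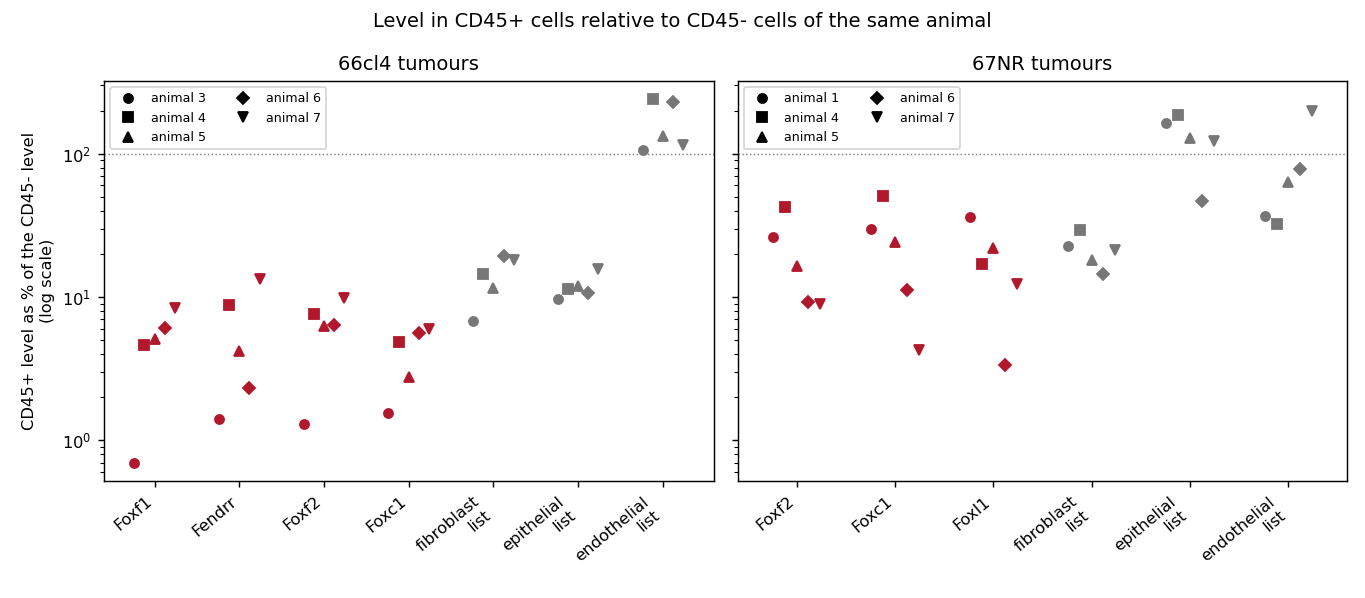
Level in CD45+ cells as a percentage of the level in CD45- cells of the same animal, on a log axis, for the forkhead genes and Fendrr (red) and for the summed levels of marker lists (grey), with 1 symbol per animal. Foxf1, Foxf2 and Foxc1 lie below 10% in each 66cl4 animal, Fendrr reaches 13.3%, and the forkhead genes lie between 3.33 and 50.6% in 67NR animals, and the dotted line marks equal levels. The marker sums in CD45+ cells are led by Thy1, Cdh1 and Pecam1, which are not lower there, so they do not stand for every member of their list.

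The fitted tumour effect differed between the gates for several of these genes. The interaction, the log2 tumour effect in CD45+ cells minus that in CD45- cells, was -3.72 (SE 1.06) for Foxf1, -2.52 (SE 0.61) for Foxc1, -1.71 (SE 0.487) for Foxf2 and -1.58 (SE 0.955) for Foxl1. The first 3 were past the threshold of an adjusted p under 0.05, all negative, beside 43.1% of 16453 genes (21.9% positive and 21.2% negative). Without animals 5 and 6 the 4 values were -3.79, -2.47, -1.70 and -1.82. The interaction shares its libraries with the comparisons above and is no separate evidence. Its fit, like those between gates, did not pair the gates of an animal.

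Levels of cell type markers also differed between the tumours in CD45- libraries, and the lists split within themselves. Of all genes tested there, 13.2% were called higher and 18.9% lower in 66cl4. The epithelial sum lay between 6117 and 6873 normalised counts in 66cl4 but between 153 and 562 in 67NR, and of 6 genes tested the keratins Krt8 (6.47) and Krt18 (4.32) were called higher in 66cl4 and Epcam (-1.41) lower on the log2 scale. Of 10 fibroblast markers 6 were called lower in 66cl4 and 4 were not called (4 lower without animals 5 and 6), with sums of 8103 to 13938 against 14523 to 22658. Of the endothelial markers 8 were called lower, 1 of 9 tested was not, and the sums were 530.1 to 1080 against 1152 to 4607 (8 of 10 lower without animals 5 and 6). The pericyte and smooth muscle list had 1 higher, Pdgfrb at 1.37, and 8 lower of 9 tested, and 1 higher and 6 lower without these animals. The lymphatic endothelial list had 2 genes tested and 1 lower (2 of 3 without these animals), and its defining gene Prox1 had at most 3 counts in each 66cl4 CD45- library. Of the leukocyte markers 3 of 8 tested were called lower, and 2 without these animals. The part of other cell types in the levels of the forkhead genes was not tested.

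Genes tied to the pathways of the cluster members were counted from lists. For comparison with each list, 13.2% of all genes tested in CD45- cells were called higher and 18.9% lower in 66cl4. In CD45+ cells these shares were 5.01% and 6.82%. Of 16 Hedgehog pathway genes, the signals upstream of Foxf1 and Foxf2, 11 were tested in CD45- cells, 4 were called higher and 1 lower in 66cl4, and the median log2 fold change was 0.82 against -0.01 over all genes, with the same counts without animals 5 and 6. The ligands Shh, Ihh and Dhh were not tested, with means of at most 2.28 normalised counts. The co-receptors Boc and Cdon had 3.56 (SE 0.13) and 3.39 (SE 0.125), with edgeR adjusted p-values of 3.19e-11 and 3.6e-11. The transcription factor Gli2 had 2.31 (SE 0.374, edgeR adjusted p = 8.69e-05) at 19.6 against 4.08 normalised counts, and the ligand exporter Disp1 had -2.56 (SE 0.506, edgeR adjusted p = 0.000475) at 3.02 against 19.3. Gli1 and Ptch1, which are direct targets of the pathway, were not called, at 0.15 and 0.10. In CD45+ cells Boc and Cdon were called higher and the receptor subunit Smo lower (-1.12, SE 0.32, edgeR adjusted p = 0.0268) of 8 tested, and without animals 5 and 6 edgeR called 0, with 5 at an unadjusted p under 0.05.

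Of 17 BMP, Wnt and growth factor genes of Foxf and Foxl1 mesenchyme, 11 were tested in CD45- cells, 5 were called higher and 1 lower, with a median of 0.62. Grem1, a BMP antagonist, had 8.55 (SE 0.314, edgeR adjusted p = 3.44e-11), at 228 ± 38.0 against 0.482 normalised counts. The ligand Bmp4, known to depend on Foxf1 and Foxl1 in gut mesenchyme, had 6.84 (SE 0.244, edgeR adjusted p = 4.67e-11), at 1525 ± 144 against 13.8 ± 8.06. The ligand Bmp5 had 6.23 (SE 0.432) and Tbx4, a transcription factor of lung and limb mesenchyme, had 5.005 (SE 0.352), and their adjusted p-values from edgeR were 2.16e-08 and 2.2e-08. In CD45+ cells Bmp4 was called higher at 4.59 (SE 0.755, edgeR adjusted p = 0.00156) and the growth factor Fgf10 lower at -1.81 (SE 0.458, edgeR adjusted p = 0.0151). Without animals 5 and 6, Bmp4 was the 1 gene called in CD45+ cells, with 3 at an unadjusted p under 0.05, and the counts in CD45- cells stayed at 5 and 1.

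Most tested vascular and lymphatic genes linked to Foxc1 and Foxc2 were called lower in 66cl4 CD45- cells. Of 15 genes 13 were tested in CD45- cells, 1 was called higher and 9 lower in 66cl4, with a median of -1.92 and the same counts without animals 5 and 6. Of all genes tested there, 13.2% were called higher and 18.9% lower. The lymphatic receptor Flt4 had -3.64 (SE 0.642, edgeR adjusted p = 0.000256), the Notch ligand Dll4 -3.19 (SE 0.463, edgeR adjusted p = 3.32e-05) and the connexin Gja4 -2.56 (SE 0.492, edgeR adjusted p = 0.000392). Efnb2, a ligand of arteries that other cells also express, was the 1 higher gene at 2.35 (SE 0.141, edgeR adjusted p = 4.02e-09). Cxcr4, Itgb3, Itga9 and Notch1 were also called lower in 66cl4 CD45- cells. Between the gates of 66cl4 these genes were called higher in CD45+ cells, at 7.41, 5.08, 5.92 and 1.95. Of the other lower genes, Hey1 and Angpt2 were not called between these gates, and Flt4, Dll4 and Gja4 were not tested there. The endothelial markers above and 3 of 8 leukocyte markers tested were lower in the same libraries, and the part of either was not tested. In CD45+ cells Cxcr4, a chemokine receptor of leukocytes, was called higher at 1.17 (SE 0.187, edgeR adjusted p = 0.00124), as was Lyve1, a hyaluronan receptor of lymphatic vessels and macrophages, at 1.54 (SE 0.387, edgeR adjusted p = 0.0176). Without animals 5 and 6, Cxcr4 was the 1 gene called.

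Of 11 genes of epithelial-mesenchymal transition, a programme in which Foxc2 and Foxq1 have been placed, 9 were tested in CD45- cells and 3 were called, each lower in 66cl4. These were the transcription factors Snai1 at -5.42 (SE 0.335, edgeR adjusted p = 2.18e-08), Snai2 at -3.09 (SE 0.1555, edgeR adjusted p = 6.94e-10) and Prrx1 at -2.58 (SE 0.128, edgeR adjusted p = 5.93e-10). The median was -0.70. Twist1 and Zeb2 were not called, at 0.24 and -0.25. In CD45+ cells Snai2, Prrx1 and the cadherin Cdh2 were called lower, at -4.14, -3.11 and -2.44, and without animals 5 and 6 Snai2 and Prrx1 were called, 2 of 9. In CD45- cells 4 of 10 were called lower without these animals.

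**Figure D5:**
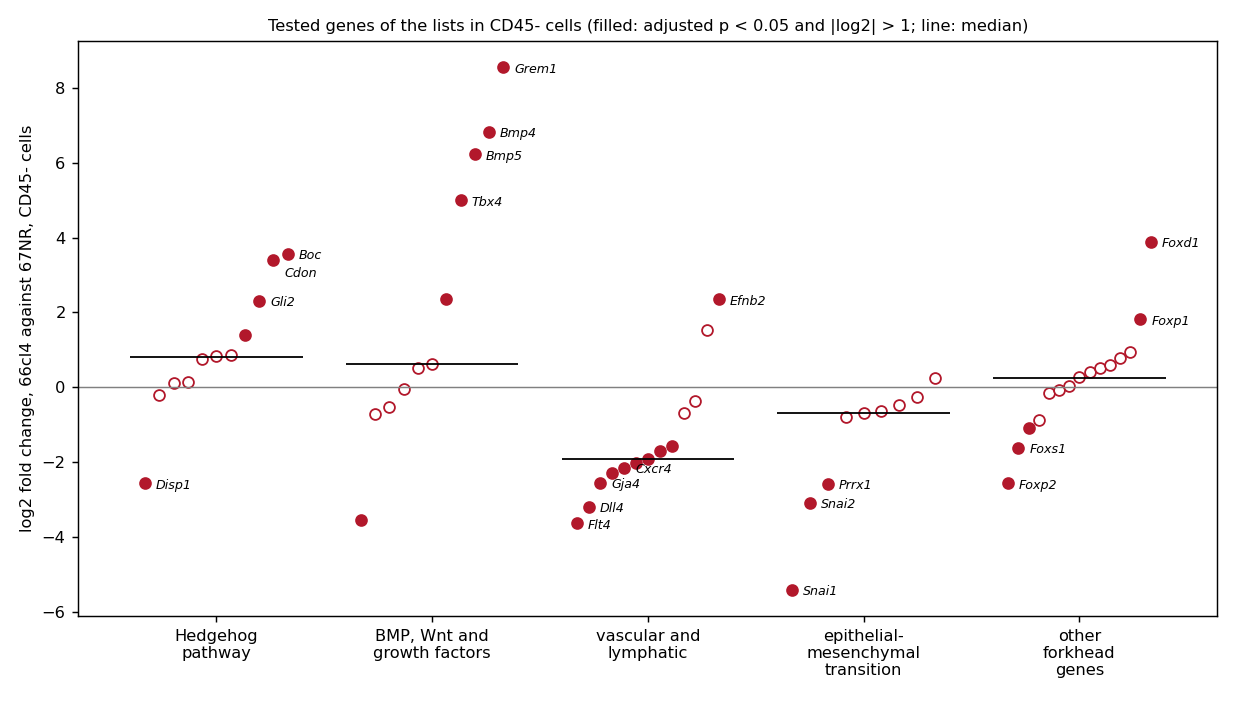
Log2 fold change between 66cl4 and 67NR CD45- cells for the tested genes of the lists, 1 point per gene in order of value, filled where the adjusted p was under 0.05 and the absolute log2 fold change over 1, with a line at the median of the list. The BMP, Wnt and growth factor list reaches 8.55 with Grem1, and the vascular and lymphatic list has its median at -1.92.

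The genes whose profile over the 20 libraries was most like that of a member were found by the root mean square difference of centred log2(normalised count + 1) values over 16453 genes. Members, symbols of the Gm and Rik series and identifiers without a symbol were left out of this ranking, so a gene among them may be nearer. Nearest to Foxf1 were Pcdhb2 (0.58), Stra6 (0.63), Zic2 (0.64), Six3os1 (0.72) and Vmn1r91 (0.80). Stra6, a membrane receptor of the retinol carrier, had 1044 ± 238 normalised counts in 66cl4 CD45- and 1.71 ± 0.56 in 67NR CD45- cells, and Zic2, a zinc finger transcription factor, had 532 ± 68.9 and 0.501 ± 0.773. Nearest to Foxf2 were Tfap2a (0.24), Dlg5 (0.24), Fam160a1 (0.26), Cacnb2 (0.27) and Gli3 (0.29). Tfap2a, a transcription factor of the neural crest and mammary epithelium, stood at 560 ± 35.3, 341 ± 32.2, 33.9 ± 12.6 and 65.4 ± 47.8 in 66cl4 CD45-, 67NR CD45-, 66cl4 CD45+ and 67NR CD45+ cells. Gli3, the Hedgehog transcription factor, stood at 1379 ± 121, 797 ± 67.6, 74.7 ± 37.1 and 135 ± 72.0. The nearest genes of Foxc2 (Plce1, Olfr715b, Zfp438, Tspan18 and Nav1) were no closer than 0.82, and its profile rested on at most 11 counts in a library.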

How the data were processed

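The data were estimated counts of 52783 genes in 20 RNA libraries of cells sorted from 66cl4 and 67NR tumours. The authors trimmed reads with fastp and made these estimated counts with Salmon 1.3.0 and tximport, without normalising them. GRCh38, a human reference, is named in the methods for this step although the identifiers are of mouse. The build of the counting is thus not known, and coordinates come only from the reference used here (GRCm38.p6). Symbols matched 51492 identifiers. Values were rounded to whole counts, and a count of 0 allows up to 3 counts in a library, for counting error only.

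Tests used R 4.3.3 and edgeR 4.0.16 (quasi-likelihood, TMM, minimum count 10 and minimum total 15, robust, Benjamini-Hochberg over all genes tested), and each fit held only the groups it compared. The thresholds were an adjusted p of 0.05 and a log2 fold change of 1 in size, without the latter for the interaction. Genes near the limit of detection in 1 group of a comparison passed the filter through the other group, so their p-values are no independent support. The standard error is the size of the log2 fold change over the square root of F. Levels were counts over size factors from DESeq2 1.42.0. TPM were set on mean transcript lengths of GENCODE M21, and 1291 genes without a length held 2.58% of the counts. Figures were drawn with matplotlib 3.10.9.

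The 6 genes, the lists and the neighbours were chosen with earlier results of these data known. Named from a list are Fendrr, Irf8, Irf4, the 4 called genes furthest from 0 in CD45- cells, and all called genes of CD45+ cells where these are 4 or fewer. Other genes of a list that carry a value were picked after their values were seen. Alternatives were DESeq2, RLE factors, total counts, other filters, all libraries in 1 fit, the replicate number as a block, CPM and TPM as levels, and fits without each library or without 66cl4 animals 5 and 6. For members under the filter, a fit with neither the filter nor these animals was added after seeing the data.

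By the labels, both gates of a tumour and number are from 1 animal. The reported fits between gates and of the interaction did not use this pairing, and the block alternative did. Deviations of these library pairs from the means of their groups correlated at 0.0251 to 0.148 for 66cl4 and at -0.00326 to 0.324 for 67NR. Across tumours only a number is shared. Replicates differed by a chi-square per degree of freedom of at least 12.5, so none was a copy of another. The fits were tested on simulated data. The sequence of 1 gene is not reported here.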

Additional observations from a re-analysis of the deposited data

Results flagged for a closer look

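Among 28 groups of 5 libraries of the 6 forkhead genes, Fendrr, Irf8 and Irf4, 3 held 1 library apart from the other 4, where chance gives about 1.4. Foxq1 had 6.69 normalised counts in 66cl4 CD45+ animal 4 against 2.78 to 3.86 in the others, which is 7 counts against 2 to 4. Irf8 had 121 in 67NR CD45- animal 4 against 32.7 to 55.5, and 2387 in 66cl4 CD45+ animal 4 against 1967 to 2089.

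For 17 named neighbours and list genes, the tumour effect differed between the gates in the interaction test of edgeR with Benjamini-Hochberg adjustment. Of all 16453 genes tested, 43.1% were past this threshold, 21.9% positive and 21.2% negative. The named genes were in part picked by large differences in CD45- cells, so nothing is read from the number 17. The values below are log2 tumour effects in CD45+ cells minus those in CD45- cells, from a fit that did not pair the gates of an animal. Of the Hedgehog genes, Boc had -1.31 (adjusted p = 0.0305), Cdon -2.10 (adjusted p = 0.000228), Smo -1.96 (adjusted p = 0.000148) and Disp1 3.12 (adjusted p = 4.89e-05). Of the vascular genes, Efnb2 had -1.45 (adjusted p = 0.00962), Dll4 3.18 (adjusted p = 0.00181) and Cxcr4 3.33 (adjusted p = 1.22e-05). Of the genes of epithelial-mesenchymal transition, Cdh2 had -1.70 (adjusted p = 0.0161) and Snai1 5.84 (adjusted p = 6.59e-08), which was 10.45 against 471 normalised counts in CD45- and 110 against 82.8 in CD45+ cells of 66cl4 and 67NR. Of the other forkhead genes, Foxd1 had -2.38 (adjusted p = 0.00444), Foxp1 -1.04 (adjusted p = 5.37e-05) and Foxs1 2.16 (adjusted p = 0.0315). Of the neighbours, Irf8 had -1.10 (adjusted p = 0.0275), Irf4 4.49 (adjusted p = 0.000291), Mthfsd -0.66 (adjusted p = 0.0134), Gmds -0.87 (adjusted p = 0.000975) and Serpinb1a 3.0 (adjusted p = 0.00452). Without 66cl4 animals 5 and 6, 13 of the 17 stayed past the threshold in this test, while Boc had -1.34 (adjusted p = 0.0939), Cdh2 -1.51 (adjusted p = 0.097), Foxs1 2.43 (adjusted p = 0.0626) and Irf8 -0.99 (adjusted p = 0.127).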

How the results depend on the processing

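The numbers of called genes stayed within 1.5 times the reported ones in all 98 alternatives run. With the replicate block, 4766 genes were called between tumours in CD45- and 1340 (against 1736) in CD45+ cells, 6616 and 6019 between gates in 66cl4 and 67NR, and 7150 in the interaction. Between tumours this block joins different animals that share only a number. Of 353 alternative log2 fold changes of the 6 genes, 350 moved by less than the spread between replicates and 3 did not, all of Foxq1 with DESeq2. Of 280 alternative ratios of levels, 4 moved further, of Foxc2, Foxl1 and Foxq1. At 0 to 11 counts per library, the depth limits Foxc2 and Foxq1 in all groups and Foxf1 in 67NR.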
